A study of Mus musculus with 8 samples.

Results

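*Fzd7*, *Axin2*, *Bmpr1a*, *Bmpr2*, *Acvr1*, *Smad1*, *Smad5*, *Smad6* and *Smad7* are 9 genes of the Wnt and bone morphogenetic protein (BMP) pathways among the 23284 gene symbols of the RNA-seq tables. They were taken as a list of gene names, with earlier results of these data known. All 9 were listed in both tables. In IdHPCs 8 of them reached a CPM of 1 (CPM is the read count scaled by the library total) in at least 1 library and were tested with 12273 genes, and *Axin2* did not. In LMPPs all 9 were tested with 12153 genes.

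Both pathways carry signals from outside the cell to genes. FZD7 is a Frizzled receptor for Wnt ligands, and AXIN2 is a scaffold of the complex that degrades β-catenin, whose own gene is a general target of Wnt/β-catenin signaling. BMP ligands bind a complex of type I receptors, here BMPR1A (ALK3) and ACVR1 (ALK2), and the type II receptor BMPR2, and the type I receptors then phosphorylate SMAD1 and SMAD5, which enter the nucleus with SMAD4. SMAD6 and SMAD7 are inhibitory SMADs that act back on the receptors, SMAD6 mainly in the BMP branch and SMAD7 also in the TGF-β branch. Both pathways are used by blood stem and progenitor cells and by the stromal cells around them.

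The libraries came from mouse hematopoietic progenitors of strain B6CBAF1/J, bone marrow derived, with passages 15-18 on the labels. IdHPCs are multipotent progenitors expanded in culture after transduction with *Id3*, here 2 control (*Pcgf1* fl/fl) and 2 KO (*Pcgf1* -/-) libraries. The KO cells had been made from *ERT2-Cre; Pcgf1* fl/fl cells with 4-OHT for 4 days, which removes exons 2 to 7, and the treatment of the control IdHPCs of the RNA-seq is not stated, while in another experiment of the study control IdHPCs received the solvent ethanol. LMPPs, lymphoid-primed multipotent progenitors, were taken from marrow and kept for 4 days with 4-OHT, again with 2 control and 2 KO libraries by label. All cells shared TSt-4 stromal feeder cells and medium with IL-7, SCF and Flt3-L. PCGF1 is a subunit of the variant Polycomb complex PRC1.1, which is brought to CpG-rich promoters by KDM2B and acts there to lower transcription.

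The libraries held between 9618849 and 25302206 reads on distinct exons. The 10 progenitor marker genes, among them *Ptprc*, *Kit* and *Flt3*, had reads in all 8 libraries. In IdHPCs the deleted exons of *Pcgf1* held 193 and 173 reads in the controls against 15 and 15 in the KO libraries. In LMPPs these exons held 84 reads in control 1, 0 in control 2, 76 in KO 1 and 0 in KO 2, so that 1 library of each label went against it. A count of 0 allows up to 3 reads, or 0.173 CPM in control 2 and 0.227 CPM in KO 2. LMPPs were therefore compared both by label and, as a grouping read from the data, as the 2 libraries without reads on these exons (control 2 and KO 2) against the 2 with them (control 1 and KO 1). The second grouping is also that of replicate 2 against replicate 1 in the labels, and the effect of the exons and that of a replicate cannot be told apart. The labels do not say whether replicates were separate cultures or animals, so p-values measure only the spread between these libraries.

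The promoters of *Fzd7*, *Bmpr1a* and *Smad6* are shown because *Fzd7* was the only member that passed the test in a comparison below, and *Bmpr1a* and *Smad6* had groups that did not overlap both in IdHPCs and in LMPPs grouped by reads on the deleted exons. In NCBIM37 (mm9), the build of the tables, *Fzd7* is a gene of 1 exon at chr1:59538991-59543791, *Bmpr1a* spans chr14:35223920-35316527 and *Smad6* chr9:63800953-63869866. The windows are the 250 bases before the start site, on the strand of the gene, from RefSeq, with positions in GRCm38.p6 and each CG in capitals.
*Fzd7*, chr1:59481897-59482146, plus strand: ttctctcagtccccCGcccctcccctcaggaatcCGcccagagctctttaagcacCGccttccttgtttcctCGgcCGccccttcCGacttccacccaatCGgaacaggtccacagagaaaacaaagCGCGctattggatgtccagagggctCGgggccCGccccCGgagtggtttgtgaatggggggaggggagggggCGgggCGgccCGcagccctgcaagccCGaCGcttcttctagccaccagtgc
*Bmpr1a*, chr14:34502547-34502796, minus strand: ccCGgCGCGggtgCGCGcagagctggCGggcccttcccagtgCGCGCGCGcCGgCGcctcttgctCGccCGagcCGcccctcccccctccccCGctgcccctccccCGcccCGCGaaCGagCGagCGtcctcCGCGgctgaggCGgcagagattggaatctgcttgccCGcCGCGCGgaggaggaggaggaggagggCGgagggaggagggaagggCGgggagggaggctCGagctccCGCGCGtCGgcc
*Smad6*, chr9:64022060-64022309, minus strand: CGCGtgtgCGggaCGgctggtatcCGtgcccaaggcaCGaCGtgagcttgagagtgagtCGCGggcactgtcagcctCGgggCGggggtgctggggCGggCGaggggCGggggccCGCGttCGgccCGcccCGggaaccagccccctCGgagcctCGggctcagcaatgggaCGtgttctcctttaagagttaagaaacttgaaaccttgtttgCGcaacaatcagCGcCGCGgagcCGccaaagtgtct
The *Bmpr1a* window held 36 CG, that of *Smad6* 27 and that of *Fzd7* 17, against a median of 6 over the 32851 promoters of the same length. A window with at least as many CG was found in 2.58%, 8.56% and 23.5% of these promoters. The CG were spread over each window. Of the members, 8 had an entry, and all had more CG than the median promoter, with the most, 46, at *Acvr1*. A motif of TCF/LEF factors (CTTTGA, either strand) was in none of the windows shown and in 13.8% of all promoters, and a GC-rich BMP-SMAD motif (GGCGCC, the same on both strands) was in the *Bmpr1a* window and in 9.59% of all promoters.

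The genes differed over a wide range in level. Per kb of exon, which allows genes to be compared, *Smad7* and *Smad5* were the highest members in control IdHPCs, with levels of 6.65 and 10.2 CPM per kb for *Smad7* and of 8.22 and 8.43 for *Smad5*, and did not differ beyond their spread. *Bmpr2* followed with levels of 3.25 and 3.67 CPM per kb and *Fzd7* with 1.33 and 2.78, and neither overlapped the gene above it. *Smad6*, *Bmpr1a* and *Acvr1* lay between 0.527 and 0.929 CPM per kb and overlapped each other. *Smad1* was lower, with levels of 0.232 and 0.363 CPM per kb, and *Axin2* was last. Of the receptor-regulated SMAD genes *Smad5* was thus far above *Smad1* in IdHPCs, and in the control libraries the type II receptor gene *Bmpr2* was above both type I receptor genes.

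**Figure D1:**
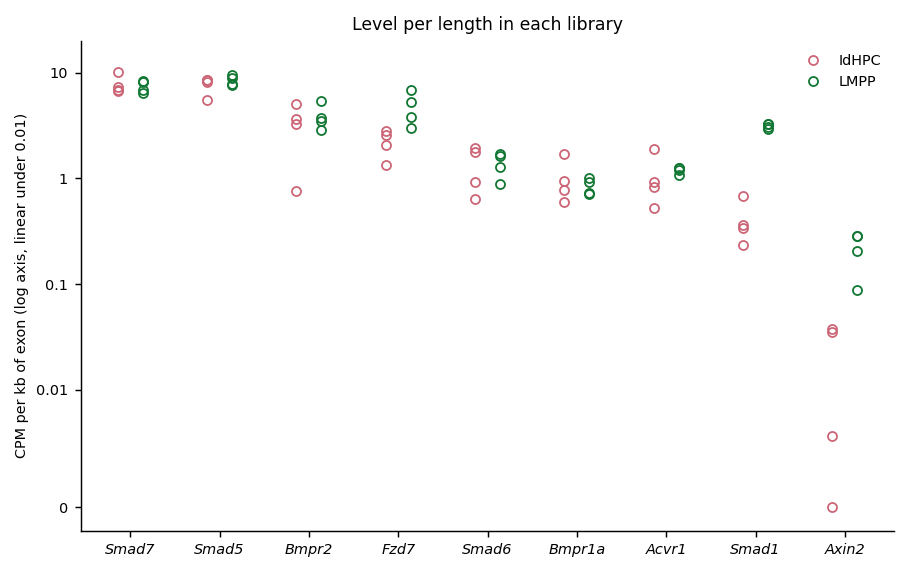
Level of each gene in CPM per kb of exon (y axis, log scale that is linear under 0.01) in the 4 IdHPC and the 4 LMPP libraries, 1 circle per library. The *Smad1*, *Axin2* and, by a small margin, *Fzd7* circles of LMPPs lie above all those of IdHPCs, and the other genes overlap.

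In control LMPPs the same pair led, *Smad5* with 7.57 and 8.94 CPM per kb and *Smad7* with 6.45 and 8.30. *Fzd7* (2.96 and 6.77 CPM per kb), *Bmpr2* (2.84 and 5.35) and *Smad1* (3.06 and 3.29) came next and overlapped. *Smad6*, *Acvr1* and *Bmpr1a* lay between 0.708 and 1.69 CPM per kb, and *Axin2* was again the lowest. Set side by side, *Smad1* ran from 1.35 to 3.93 CPM in the IdHPC libraries and from 17.2 to 19.1 CPM in the LMPP libraries. *Fzd7* ran from 6.40 to 13.4 CPM in IdHPCs and from 14.2 to 32.5 CPM in LMPPs, and *Axin2* from 0 to 0.188 CPM and from 0.442 to 1.44 CPM. The libraries of these genes did not overlap between the tables, and those of the other 6 members did. The tables were normalized separately, so these levels were not tested against each other.

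The first question was whether the genes changed with loss of PCGF1 in IdHPCs. None of the 8 tested members passed an adjusted p of 0.05 (limma on log2(CPM + 1), the scale of all differences below, which understates the change of low genes), and 0.53% of all genes did, 0.269% as higher. *Smad6*, *Bmpr1a* and *Acvr1* had both KO libraries above both controls, which held for 25.6% of all genes. No member had both KO libraries below both controls, against 21.3% of all genes. At an unadjusted p of 0.05 *Smad6* and *Bmpr1a* were higher and no member was lower, against 9.17% and 5.33% of all genes. The median difference over the 8 members was 0.36, and 0.0056 over all genes. On the recovered reads, DESeq2 and both edgeR tests (exactTest and quasi-likelihood) also called none of the members.

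*Smad6*, the inhibitory SMAD of the BMP branch, had the largest difference of the members. It stood at 2.69 CPM in control 1 and 1.83 in control 2, and at 5.20 in KO 1 and 5.65 in KO 2, from 64 to 148 reads. Both KO libraries were above both controls, and the gap between the groups was wider than the spread within either. The means were 2.26 ± 0.608 CPM (SD, n = 2) in controls and 5.42 ± 0.318 (SD, n = 2) in KO, a ratio of 2.39. The difference was 0.99 (SE 0.29, limma, adjusted p = 0.149). *Smad6* was also higher in both KO libraries on 3 of its 4 listed exons.

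*Bmpr1a* and *Acvr1* are the type I receptor genes. *Bmpr1a* stood at 4.96 and 3.78 CPM in control 1 and control 2 and at 10.7 and 5.93 in the KO libraries, with a difference of 0.76 (SE 0.33, limma, adjusted p = 0.324). *Acvr1* stood at 3.09 and 1.98 CPM in control 1 and control 2 and at 7.06 and 3.44 in the KO libraries, with a difference of 0.78 (SE 0.35, limma, adjusted p = 0.350). In both genes KO 2 was only a little above control 1, and KO 1 stood apart from the other libraries. *Smad1*, a receptor-regulated SMAD, had the same highest and lowest libraries, with 2.11 and 1.35 CPM in control libraries and 3.93 and 1.98 in the KO libraries, but its groups overlapped. Its difference was 0.50 (SE 0.34, limma, adjusted p = 0.524). Without KO 1 the differences of *Bmpr1a*, *Acvr1* and *Smad1* were 0.38, 0.35 and 0.14, without KO 2 they were 1.14, 1.21 and 0.87 with no call, and without the exon at the 3′ end those of *Acvr1* and *Smad1* were 0.45 and 0.33.

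*Fzd7* did not separate the groups in IdHPCs. It stood at 6.40 CPM in control 1, 13.4 in control 2, 12.4 in KO 1 and 9.83 in KO 2, from 209 to 466 reads. The controls were the lowest and the highest of the 4 libraries, with both KO libraries between them. The difference was 0.22 (SE 0.34, limma, adjusted p = 0.797), with a 95% interval from -0.53 to 0.98. *Axin2* was too low to test, with 1 and 0 control reads and 5 and 4 KO reads. *Smad7* stood at 29.1 and 44.5 CPM in control libraries and 30.2 and 32.0 in the KO libraries, with a difference of -0.20 (SE 0.26, limma, adjusted p = 0.751), and its control libraries lay further apart than the groups.

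**Figure D2:**
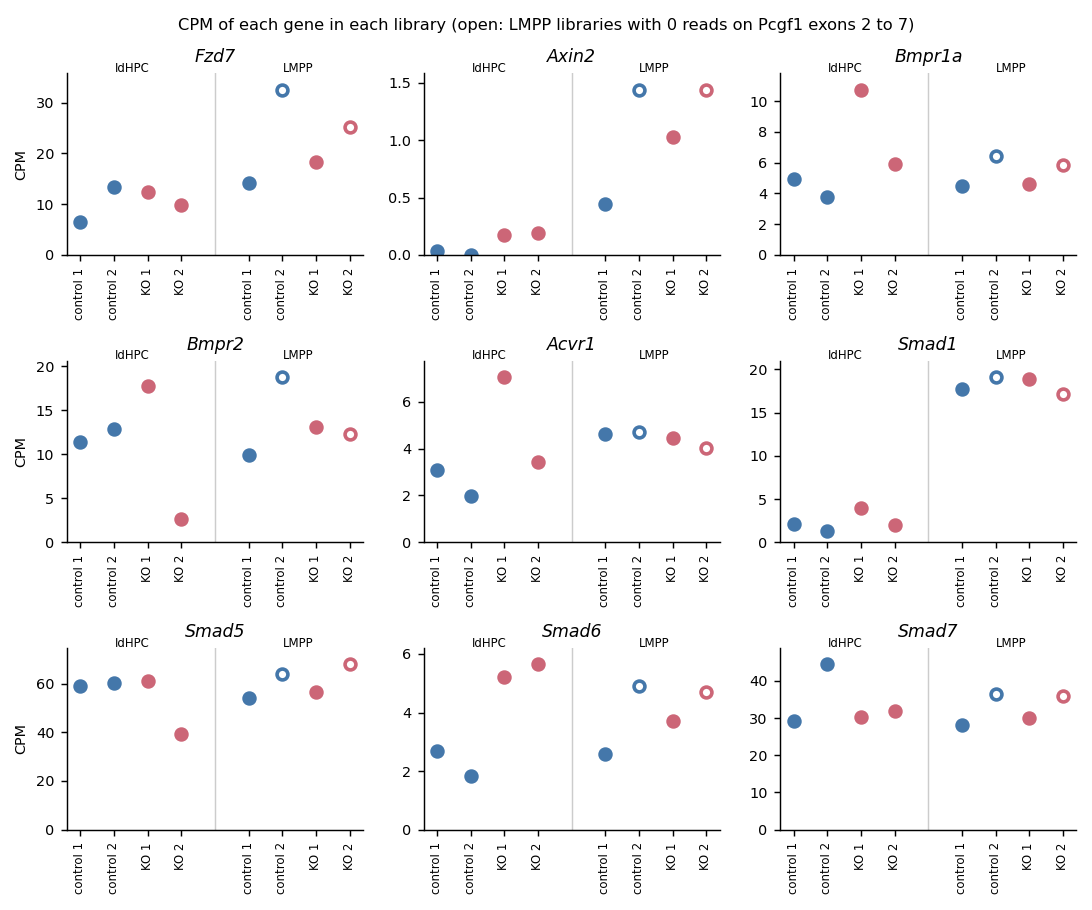
CPM of each of the 9 genes (y axis, linear from 0) in each library (x axis), with blue for control and red for KO by label, and open circles for the LMPP libraries with 0 reads on *Pcgf1* exons 2 to 7. In IdHPCs only *Smad6*, *Bmpr1a* and *Acvr1*, and *Axin2* at 0 to 5 reads, have both KO libraries on top, and in LMPPs the open circles are above the filled ones for *Fzd7*, *Axin2*, *Bmpr1a*, *Smad5*, *Smad6* and *Smad7*.

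Markers of the stromal feeder type moved with the groups in IdHPCs. The summed level of the 20 stromal markers was 3162 and 2721 CPM in control libraries and 6841 and 5778 CPM in the KO libraries, with *Dcn* and *Lum* at 0 reads in all 4. All 18 tested markers were higher in both KO libraries, against 25.6% of all genes. *Col1a2* and *Sparc*, a collagen chain and a matrix protein, passed the test, where 0.269% of all genes were called higher. *Sparc* had a difference of 1.36 (SE 0.21, limma, adjusted p = 0.0271). The order of the libraries by summed markers, with control 2 lowest and KO 1 highest, was also that of *Bmpr1a* and *Acvr1*, while *Smad6* was highest in KO 2. The *Smad6* exon at the 3′ end held 35% of its reads in KO 2 and 17.2% to 23% in the others. Without that exon *Smad6* stood at 2.143 and 1.518 CPM in the controls and 4.003 and 3.67 in the KO libraries. These values had the order of the summed markers. Without its own 3′ exon *Bmpr1a* kept that order by a small margin. *Acvr1* did not, with KO 2 at 1.882 CPM and control 1 at 2.603. The part of the feeder cells in the differences of *Smad6*, *Bmpr1a* and *Acvr1* was not tested. In bulk RNA more cells of a type and more RNA per cell cannot be told apart. Mature myeloid markers summed to at most 9.20 CPM in these libraries, B cell markers to 30.9 and 92.1 CPM in controls and 38.3 and 189.0 in KO, and erythroid markers to at most 3.62 CPM.

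**Figure D3:**
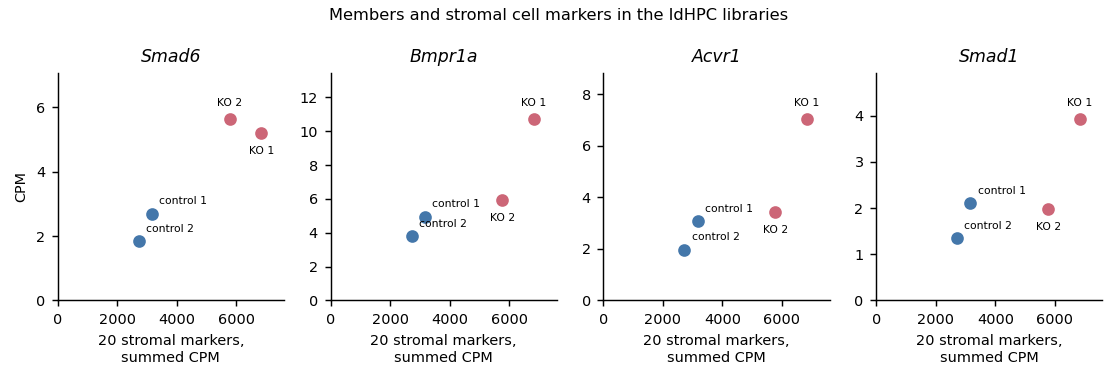
CPM of *Smad6*, *Bmpr1a*, *Acvr1* and *Smad1* (y axis) against the summed CPM of 20 stromal cell markers (x axis) in the 4 IdHPC libraries, with blue for control and red for KO. The KO libraries have 5778 and 6841 CPM of stromal markers and the controls 2721 and 3162.

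KO 2 differed from the other IdHPC libraries along the transcripts. *Bmpr2* stood at 11.4 and 12.9 CPM in the controls, 17.8 in KO 1 and 2.64 in KO 2, from 372, 449, 507 and 56 reads. The KO libraries were thus the highest and the lowest, and the difference of -0.66 (SE 0.58, limma, adjusted p = 0.628) is the mean of opposite values. Without KO 2 it was 0.52, and without KO 1 it was -1.85 (limma, adjusted p = 0.016), a test in which KO 2 stands alone and is assumed to vary like the controls. KO 2 was the lowest library on all 13 listed exons of *Bmpr2*. *Smad5* stood at 59.0 and 60.5 CPM in the controls, 61.1 in KO 1 and 39.5 in KO 2, with a difference of -0.28 (SE 0.25, limma, adjusted p = 0.648).

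The lower value of KO 2 was uneven over the exons of *Smad5*. Its exon at the 3′ end stood at 39.4, 43.4 and 40.5 CPM in control 1, control 2 and KO 1 and at 34.0 in KO 2, while its other exons together stood at 19.6, 17.1 and 20.7 CPM and at 5.50 in KO 2. The 3′ exon held 86.1% of the *Smad5* reads in KO 2 (95% Wilson interval 83.5 to 88.2) and 66.2% to 71.8% in the others. For *Smad7* it was 64.8% (61.1 to 68.3) in KO 2 and 46.1% to 49.7% in the others, and for *Bmpr2* 23.2% (14.1 to 35.8) and 8.33% to 10.5%. Over 10268 genes the share of reads on the 3′ exon was 30.0% in KO 2 and 24.8% to 26.5% in the other IdHPC libraries. KO 2 had the highest 3′ share in 7 of the 7 tested members with several exons and in 77.7% of all such genes. Without the 3′ exon the difference of *Smad5* was -0.70 and that of *Smad7* -0.45, and from the 3′ exon alone they were -0.15 and -0.0046. That of *Bmpr2* was -0.73 without it and -0.09 from it alone. No member passed the test either way (limma).

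**Figure D4:**
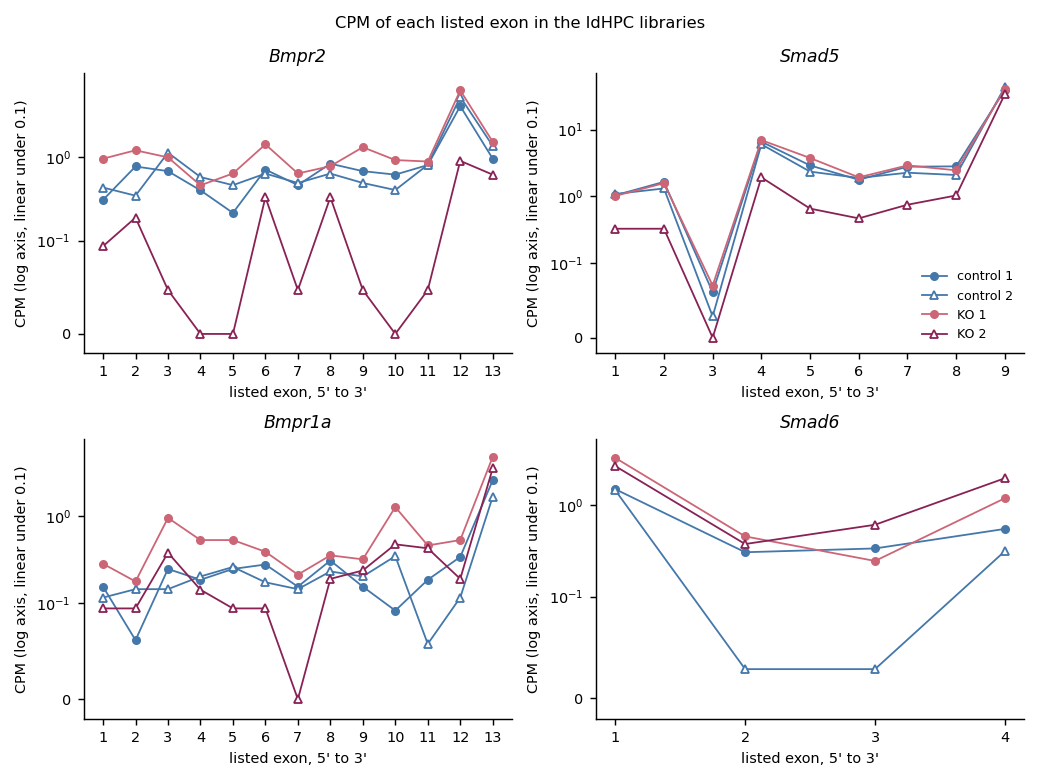
CPM of each listed exon (y axis, log scale that is linear under 0.1) from the 5′ to the 3′ end (x axis) for *Bmpr2*, *Smad5*, *Bmpr1a* and *Smad6* in the 4 IdHPC libraries. KO 2 (dark triangles) is lowest on all 13 *Bmpr2* exons and all 9 *Smad5* exons, comes close to the others at the 3′ exon of *Smad5*, and is above both controls at the 3′ exons of *Bmpr1a* and *Smad6*.

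By label, none of the 9 members passed the test in LMPPs. None of the 12153 genes passed an adjusted p of 0.05 (limma, 0% called), 2 had an unadjusted p under 0.05, and exactTest, the quasi-likelihood test and DESeq2 called 0 genes. The adjusted p of every member was 1, and the differences ran from -0.12 for *Acvr1* to 0.25 for *Axin2*, with a median of -0.005. *Acvr1* was the only member whose groups did not overlap, with 4.65 and 4.72 CPM in control libraries and 4.46 and 4.01 in the KO libraries, against 6.3% of all genes lower in this way, and none was higher, against 5.92%. *Fzd7* stood at 14.2 and 32.5 CPM in control libraries and 18.4 and 25.1 in the KO libraries, again with both KO libraries between the controls, and its 95% interval ran from -0.94 to 0.93.

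Grouped by reads on *Pcgf1* exons 2 to 7, *Fzd7* was the member that rose. It stood at 32.5 CPM in control 2 and 25.1 in KO 2, the libraries without such reads, and at 14.2 in control 1 and 18.4 in KO 1, the libraries with them, from 193 to 565 reads. Both libraries without the reads were above both others, by 1.77-fold in the means (28.8 ± 5.22 against 16.3 ± 2.94 CPM, SD, n = 2 each). The difference was 0.78 (SE 0.16, limma, adjusted p = 0.00686), in a comparison where 17.2% of all genes were called and 10.1% were called higher. Without control 2, which leaves KO 2 alone in its group and assumed to vary like the others, its value was 0.60 (limma, adjusted p = 0.0557). exactTest called *Fzd7*, *Smad5* and *Smad7*, the quasi-likelihood test *Fzd7* and *Smad7*, and DESeq2 called *Fzd7*, where over all 12153 genes they called 2586, 2091 and 1486.

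*Axin2*, *Smad7* and *Smad6*, which code for feedback inhibitors of the pathways, were also higher in both libraries without the reads but did not pass the test. *Axin2* stood at 1.44 and 1.44 CPM in the libraries without the reads, from 25 and 19 reads, and at 0.442 and 1.03 CPM in the others, from 6 and 15 reads. Its difference was 0.51 (SE 0.23, limma, adjusted p = 0.168), and 0.26 without control 1. Exons of *Axin2* overlap the antisense transcript Gm11670, and reads of the pair cannot be told apart without strand. *Smad7* stood at 36.4 and 36.0 CPM against 28.2 and 30.1, with a difference of 0.30 (SE 0.097, limma, adjusted p = 0.0603), and *Smad6* at 4.89 and 4.69 CPM against 2.58 and 3.71, with a difference of 0.50 (SE 0.18, limma, adjusted p = 0.10). Without control 1 the difference of *Smad6* was 0.30, and without KO 1 it was 0.69 (limma, adjusted p = 0.0238), where the lone library with the reads is assumed to vary like the others. The inhibitory SMAD genes were both higher in both libraries, by 1.24-fold and 1.52-fold in the means.

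*Bmpr1a* stood at 6.44 and 5.83 CPM against 4.50 and 4.60, with a difference of 0.36 (SE 0.15, limma, adjusted p = 0.147). *Smad5* stood at 64.2 and 68.0 CPM against 54.3 and 56.4, with a difference of 0.25 (SE 0.086, limma, adjusted p = 0.0771). In these genes the libraries of a pair lay close together and the pairs were apart. *Bmpr2*, with 18.8 and 12.3 CPM against 9.95 and 13.04, overlapped, with a difference of 0.39 (limma, adjusted p = 0.220). It was 0.11 without control 2, and it passed the test without KO 1 (0.57, limma, adjusted p = 0.0237) and without KO 2 (0.67, limma, adjusted p = 0.0446), each with a lone library in 1 group. *Acvr1* and *Smad1* had differences of -0.05 and -0.01, with 95% intervals from -0.41 to 0.31 and from -0.28 to 0.25.

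In all, 6 of the 9 members had both libraries without the reads above both others and none had both below, against 26.7% and 29.9% of all genes. The same 6 had an unadjusted p under 0.05, against 15.8% of all genes in that direction, and the median difference of the members was 0.36 against -0.02 over all genes. Between the tables, *Smad6* and *Bmpr1a* had both libraries higher in IdHPC KO and in LMPPs without the reads, with differences of 0.99 and 0.76 in IdHPCs and 0.50 and 0.36 in LMPPs. *Fzd7* rose in LMPPs and stood at 0.22 in IdHPCs, and *Acvr1* stood at -0.05 and 0.78. Whether these differ between the cell types was not tested.

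**Figure D5:**
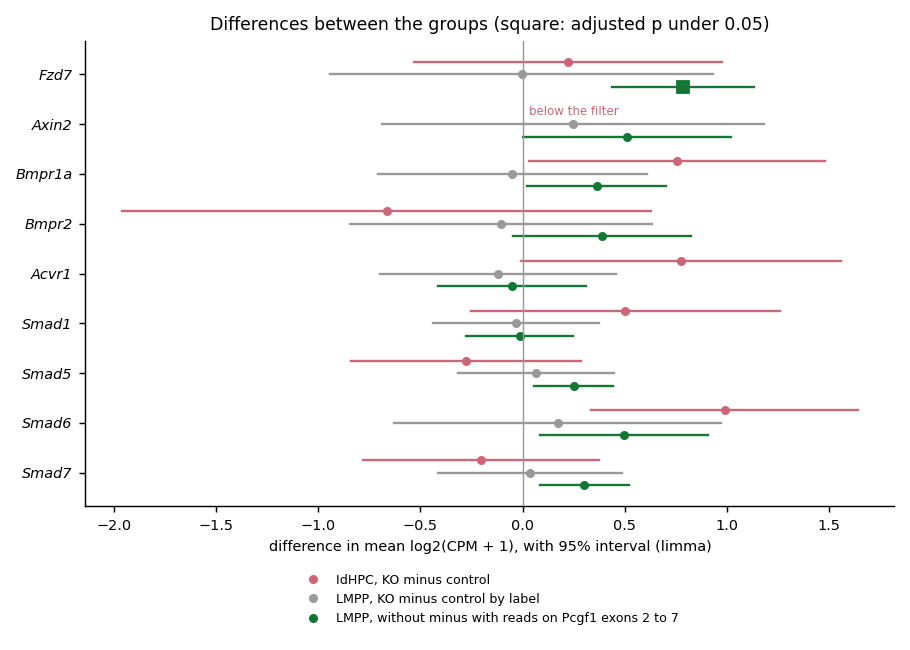
Difference in mean log2(CPM + 1) with its 95% interval by limma (x axis) for each gene (y axis) in IdHPCs (KO minus control), in LMPPs by label (KO minus control), and in LMPPs without minus with reads on *Pcgf1* exons 2 to 7. The square, *Fzd7* at 0.78 in the last comparison, is the only value with an adjusted p under 0.05, and *Axin2* was below the filter in IdHPCs.

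Other cell markers also moved with this grouping of LMPPs. Of 7 tested mature myeloid markers 4 fell, where 860 of the 12153 genes fell. Of the 7, 6 were lower in both libraries, against 29.9% of all genes, with a median difference of -1.13. The summed level of the list was 2055 and 2098 CPM without the reads and 2374 and 2365 CPM with them. Stromal markers summed to 61.3 and 52.4 CPM without the reads and 39.5 and 40.8 CPM with them, of which *Pdgfrb* made 56.9 and 48.8 CPM and 35.1 and 35.8 CPM, while *Col3a1*, *Dcn* and *Lum* were at 0 reads in all 4 libraries. B cell markers summed to 15.0 and 15.9 CPM without the reads and 25.4 and 19.5 CPM with them, and *Blnk* fell. Erythroid markers summed to 7.37 and 11.3 CPM without the reads and 3.98 and 5.56 CPM with them. All 3 tested were higher in both libraries, against 26.7% of all genes, and *Epor* rose. Of the 10 progenitor markers *Kit* rose and *Ly6a* and *Cd48* fell, where 17.2% of all genes were called either way. The part of all these markers in the differences of the members was not tested.

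Of the other genes of both pathways, 128 were listed, 83 were tested in IdHPCs and 62 in LMPPs. In IdHPCs 1 of the 83 passed the test, *Ccnd1*, cyclin D1, which Wnt/β-catenin signaling can induce, against 0.53% of all genes called and 0.269% called higher. It stood at 14.2 and 10.5 CPM in both controls and rose to 46.9 and 36.3 in the KO libraries, with a difference of 1.67 (SE 0.26, limma, adjusted p = 0.0294). Its order over the 4 libraries was that of the summed stromal markers, whose part in the difference was not tested. In the LMPP libraries without the reads it fell by 0.49 (limma, adjusted p = 0.00187), to 129.1 and 123.0 CPM from 176.4 and 178.1. *Ccnd1* thus moved in opposite directions in the tables. In that comparison of LMPPs 12 of the 62 genes rose and 5 fell, against 10.1% of all genes called higher and 17.2% called either way. Among the 12, *Fzd4*, *Tcf7l1* and *Nkd1* reached the CPM of 1 needed for testing only in the libraries where they were high. The same filter applied to all genes. By label none of the 62 passed.

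None of 8 Wnt receptor genes passed in IdHPCs. The largest difference was that of *Fzd2*, another Frizzled receptor, at 7.72 and 6.71 CPM in control libraries and 16.9 and 18.9 in the KO libraries, 1.20 (SE 0.26, limma, adjusted p = 0.0711). It was at most 0.748 CPM in LMPPs. In the LMPP libraries without the reads 5 of 10 Wnt receptor genes rose and none fell, where 10.1% of all genes were called higher, and the median over the list was 0.53, as against -0.02 over all genes. The 5, named after their values were seen, were *Fzd4*, *Fzd6*, *Fzd8*, the co-receptor gene *Lrp5* and *Ryk*. Their differences ran from 0.49 for *Lrp5* to 0.99 for *Ryk*. *Fzd4* reached the CPM of 1 needed for testing only in the libraries without the reads. It stood at 1.67 and 1.51 CPM there and at 0.369 and 0.480 in the others, so its rise also decided that it was counted. *Lrp5* stood at 199.3 and 176.9 CPM against 124.4 and 142.3. So *Fzd7* rose there with 3 other Frizzled genes, including *Fzd4* with that limit. In IdHPCs *Ryk* stood at 14.7 and 11.2 CPM in controls and 36.3 and 23.1 in KO (1.12, limma, adjusted p = 0.105). Its values had the library order of the summed stromal markers.

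Among 16 cytoplasmic and nuclear Wnt components none passed in IdHPCs. *Tcf7l1*, a TCF factor that mostly represses Wnt targets, had the largest difference, from 1.26 and 1.35 CPM in control libraries to 5.97 and 4.24 in the KO libraries, 1.39 (SE 0.30, limma, adjusted p = 0.0711). It was the member of this list that rose in the LMPP libraries without the reads, by 0.97 (SE 0.23, limma, adjusted p = 0.0172). It stood there at 2.07 and 1.59 CPM against 0.221 and 0.686. It thus reached the CPM of 1 needed for testing only in the libraries where it was high. Among the targets and feedback genes of that comparison *Nkd1* and *Lgr4* also rose, by 1.19 and 1.24, next to the fall of *Ccnd1*. *Nkd1*, at 1.90 and 1.97 CPM against 0.295 and 0.275, likewise reached a CPM of 1 only in the libraries where it was high. *Nkd1* codes for an inhibitor of Dishevelled and *Lgr4* for an R-spondin receptor, and both were named after their values were seen.

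Of the Wnt ligand and secretion genes 6 were tested in IdHPCs and none passed. *Wls*, the carrier that brings Wnt proteins to the cell surface, stood at 8.73 and 6.71 CPM in control libraries and 20.4 and 10.7 in the KO libraries (0.87, limma, adjusted p = 0.260), again in the order of the stromal markers. In the LMPP libraries without the reads *Wnt10b* rose by 1.17 and *Wnt9a* fell by 1.34, and these were named after their values were seen. *Wnt10b* stood at 9.61 and 9.24 CPM there and at 3.32 and 3.98 in the others. The ligands of the LMPP table thus went in both directions.

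On the BMP and TGF-β side none of the tested genes passed in IdHPCs, in 8 other receptors, 13 other Smads and regulators, 12 ligands and antagonists, and 8 BMP targets. *Bmp4*, a ligand of these receptors, stood at 21.3 and 9.80 CPM in control libraries and 39.6 and 25.4 in the KO libraries, a difference of 1.08 (SE 0.36, limma, adjusted p = 0.197). In LMPPs it had at most 0.0757 CPM, a level of 1 read. *Bmp4* thus had reads nearly only in IdHPC libraries, where the stromal markers were also high, and it followed their order over the libraries. The part of these markers in its difference was not tested, and 25.6% of all genes had both KO libraries above both controls. *Atoh8*, a BMP target gene, stood at 1.50 and 1.66 CPM in control libraries and 5.90 and 6.54 in the KO libraries. Its difference was 1.48 (SE 0.28, limma, adjusted p = 0.0526). Of the 8 BMP targets 3 had both KO libraries above both controls and 2 had both below, with a median difference of 0.35. *Tgfbr3*, a TGF-β co-receptor, and *Smad9*, the remaining BMP SMAD, had differences of 0.85 and 0.58 (limma, adjusted p = 0.298 and 0.413). Both also followed the order of the stromal markers. The part of these markers in the differences of *Wls*, *Ryk*, *Tgfbr3* and *Smad9* was not tested either.

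In the LMPP libraries without the reads 3 of 7 other TGF-β family receptor genes rose and 1 fell, where 17.2% of all genes were called in either direction. Named after their values were seen, *Tgfbr2*, *Acvr2b* and *Acvr1b* rose by 0.86, 0.90 and 0.52, and *Acvrl1*, a type I receptor gene mainly of endothelium, fell by 0.79. *Tgfbr2*, the TGF-β type II receptor gene, stood at 63.8 and 60.9 CPM against 30.9 and 37.0. None of 11 other Smads and regulators passed. Of 5 BMP target genes 2 fell, *Id3* by 1.67 (3.28 and 3.79 CPM against 13.2 and 13.6) and *Id2* by 0.67, while *Id1* was at 5.35 and 5.98 CPM against 5.97 and 4.32. *Id2* and *Id3* code for inhibitors of basic helix-loop-helix factors and were, like *Acvrl1*, named after their values were seen.

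The genes whose values over the 8 libraries were most like those of the 3 genes with promoters shown were found among 11248 genes tested in both tables, after each table was centred on its own mean. For *Fzd7* they were *Prkca* (Pearson's r = 0.995, n = 8 libraries), *Parp16* (0.977) and *Tbc1d9b* (0.975). For *Bmpr1a* they were *Fam129a* (0.994), *Nek6* (0.991) and *Rai14* (0.989), and for *Smad6* *Rhoc* (0.994), *Snx8* (0.980) and *Cd97* (0.979). *Prkca*, which codes for protein kinase C alpha, shared the pattern of *Fzd7* with the lowest and highest values in the control libraries, at 40.0 and 65.8 CPM in control and 61.9 and 52.2 in KO IdHPCs. *Rhoc*, a small GTPase gene, was higher in both KO IdHPC libraries, at 32.3 and 36.0 CPM against 16.7 and 13.2. The 8 points share libraries and depth, and these genes were picked as the highest of 11248, so that the r values are a description only.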

How the data were processed

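Poly(A) RNA of IdHPCs and LMPPs was sequenced on an Illumina HiSeq, with a kit that does not keep strand. The authors aligned reads to mm9 (HISAT2 in the methods, TopHat2 2.0.13 in the submitters' processing notes), counted them with Rsubread and deposited CPM made with edgeR. Each of the 284716 lines of a table is an exon. Exons equal to the one before in all 8 libraries were counted once, and exons were summed per symbol. All values were whole multiples of 1 read (within 0.01), which gave the reads. Whether a read over several exons is counted on each is not stated, so intervals and floors may be too narrow and cover counting error only.

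Tables were tested separately with limma 3.58.1 (R 4.3.3, mean-variance trend) on log2(CPM + 1), for genes with a CPM of 1 in at least 1 library, 2 libraries against 2, with Benjamini-Hochberg adjustment over all genes and a threshold of 0.05. The design was written for a table of genes. Alternatives were a pseudocount of 0.1, other filters, median ratio rescaling, no trend, a replicate block, leaving out each library, edgeR 4.0.16 (exactTest, quasi-likelihood) and DESeq2 1.42.0 on the reads, all listed exons, and sums without the 3′ exon. Sums of the 3′ exon alone were added after seeing the data. The tests were run first on simulated data. Exon lengths are from GENCODE on NCBIM37.

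The members, lists and tests were chosen with earlier results of these data known. Named genes are the 9 members, *Pcgf1*, the called genes of each pathway list in IdHPCs (at most 3 by size, otherwise the largest difference), and the 3 genes most like *Fzd7*, *Bmpr1a* and *Smad6*. Others are said to be named after their values were seen. The promoter of *Smad7* was not used here.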

Additional observations from a re-analysis of the deposited data

Results flagged for a closer look

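*Acvr1*, the type I BMP receptor gene, had both KO libraries above both controls in IdHPCs, with a difference of 0.78 on the log2(CPM + 1) scale, and both KO libraries below both controls in LMPPs by label, with a difference of -0.12. It was picked out because all libraries went opposite ways in the cell types when grouped by label. In LMPPs 1 library of each label went against it in its reads on the deleted *Pcgf1* exons, and grouped by those reads the *Acvr1* difference was -0.05 with overlapping groups. Neither value passed the test (limma, adjusted p = 0.350 and 1), and the difference between the cell types was not tested. With 2 libraries in each group no test for a library far from the others was made.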

How the results depend on the processing

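In IdHPCs 65 genes were called (limma), and 0 with no filter, 610 by exactTest, 124 by the quasi-likelihood test, 497 by DESeq2, 3 without the 3′ exon, 284 from the 3′ exon alone and 669 with the replicate block. Leaving out a library gave 14 to 818 (14 without control 2, 166 without KO 2, 818 without KO 1). The cause was not tested. No member was called under these alternatives except *Smad6* with the replicate block (1 member, 0.99, adjusted p = 0.0419) and *Bmpr2* without KO 1, so that leaving out a library gave 0 to 1 members. Each test without a library leaves a group of 1, assumed to vary like the others. By label, LMPPs had 1 gene called from the 3′ exon alone and 3 with the replicate block, and 0 without any 1 library. For LMPP libraries without against with reads on the exons, 2089 genes were called, 2586 by exactTest, 2091 by the quasi-likelihood test, 1106 without the 3′ exon, 1181 from it alone and 1247 to 1972 without a library (1247 without control 2). The 1 member called became 3 by exactTest, 2 by the quasi-likelihood test, 0 without the 3′ exon (*Fzd7* has only that exon, so it has no value there) and 0 to 3 without a library, with 0 without control 2, 3 without KO 1 (*Fzd7*, *Smad6*, *Bmpr2*) and 2 without KO 2 (*Fzd7*, *Bmpr2*).

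Of 411 values of single members, 375 kept direction and call, 8 gained and 1 lost a call, and 27 changed sign. None of those with a changed sign had been called. Leaving out a library, the IdHPC differences ran from -0.25 to 0.70 for *Fzd7*, -0.50 to 0.092 for *Smad7*, -1.85 to 0.52 for *Bmpr2* and -0.59 to 0.033 for *Smad5*. By label in LMPPs they ran from -0.57 to 0.56 for *Fzd7*, -0.13 to 0.63 for *Axin2*, -0.27 to 0.17 for *Bmpr1a*, -0.53 to 0.32 for *Bmpr2*, -0.095 to 0.033 for *Smad1*, -0.065 to 0.20 for *Smad5*, -0.19 to 0.53 for *Smad6* and -0.14 to 0.22 for *Smad7*, and *Bmpr1a* was 0.071 from the 3′ exon alone. In the last comparison *Smad1* ran from -0.087 to 0.058 and *Acvr1* from -0.15 to 0.043, *Smad1* was 0.0041, 0.0036 and 0.0014 by exactTest, the quasi-likelihood test and DESeq2, *Smad1* and *Acvr1* were both 0.12 without the 3′ exon, and *Bmpr2* was -0.36 from it alone. Ranking by CPM in place of CPM per kb left *Fzd7* at 4 of 9 in control IdHPCs.

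The deviations of same-numbered libraries correlated at r = 0.147 in IdHPCs and 0.705 in LMPPs over all genes, and with 2 pairs the numbers are taken as names only. With the replicate block the differences of the members were the same in size, and only the calls given above moved. Reads limit *Axin2*, with 0 to 25 a library, most.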
